A study of Mus musculus with 6 samples.

Results

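Semaphorins are signals between cells, and plexins and neuropilins are their receptors. The genes described here are the rows of the deposited table whose name begins with Sema3 to Sema7 or with Plxna, Plxnb, Plxnc or Plxnd, or is Nrp1 or Nrp2. The rule used names alone and took 34 of 54532 rows, namely 20 semaphorins, 9 plexins, 2 neuropilins and 3 antisense transcripts of Plxna4. The series measured gene expression by RNA-seq in 6 samples labelled wild-type adipocytes of the 3T3 line, which derives from mouse fibroblasts. Of these, 3 received the solvent DMSO and 3 received 200 µM baicalin, a plant flavone glucuronide. The sources used here do not give the subline, the differentiation protocol, the duration of treatment or whether the samples of a group were separate cultures. The p-values therefore measure only how far these 6 samples vary, and that variation may be technical.

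A semaphorin carries a sema domain with which it binds a plexin on the receiving cell. Class 3 semaphorins are secreted and mostly use a neuropilin as the binding subunit beside an A or D plexin, whereas classes 4 to 6 span the membrane and class 7 is anchored to it by a lipid, and these bind plexins without a neuropilin. The inner part of a plexin switches off Ras-like GTPases such as R-Ras and Rap, is set by Rnd and Rac proteins, and ends in loss of integrin adhesion and a rebuilt actin skeleton. The family is best known from the guidance of axons and blood vessels. In mouse visceral fat Sema3e acting on Plxnd1 has been linked to the entry of macrophages, and SEMA3C is described as a secreted product of human fat cells.

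The libraries held 16730594 to 18326874 counts. Of 8 fat cell markers, Lep and Slc2a4 had 2 and 6 reads in all 6 libraries together. The 5 endothelial markers were each under 1 CPM (counts relative to the library total, with library sizes scaled by TMM factors). Among the other fat cell markers, means under DMSO were 1443 CPM for Lpl and 430 CPM for Fabp4. Those of Plin1, Pparg, Cidec and Adipoq were 18.9, 17.6, 5.28 and 1.66 CPM. The summed level of 8 fat cell markers was 1803 to 1977 CPM under DMSO and 801 to 816 CPM under baicalin, with all 6 tested markers lower. That of 6 fibroblast markers was 12887 to 13405 CPM under DMSO and 8892 to 9123 CPM under baicalin, with 5 lower and Thy1 higher. Neuron markers, relevant to a family named for axon guidance, were near 0 except Map2, which fell from 12.6 to 3.88 CPM. The part of these shifts in the changes below was not tested, and in such bulk samples fewer cells of a type and less RNA per cell cannot be told apart.

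The sequences below are the 250 bases upstream of the RefSeq start of the members with a called change of at least 4-fold and of abundant receptors, from RefSeq on GRCm38.p6, written 5′ to 3′ in the direction of the gene. They are shown to give the bases before the start of the members that moved furthest and of receptors at a high level. Plxnb2 and Nrp2 both rose, so Sema3a is the only member called lower among the 5. Capitals mark matches on either strand to the AHR core GCGTG, the SP1 box GGGCGG, the AP-1 site TGANTCA, the antioxidant response element TGACNNNGC or the TATA letters TATAA. Matches of the SP1 and AHR letters can adjoin each other.
Sema3a: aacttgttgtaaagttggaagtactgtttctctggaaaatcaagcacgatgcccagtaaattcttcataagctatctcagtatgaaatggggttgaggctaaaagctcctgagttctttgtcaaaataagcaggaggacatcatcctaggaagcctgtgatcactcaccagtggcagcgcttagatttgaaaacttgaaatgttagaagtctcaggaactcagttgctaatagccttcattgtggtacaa
Sema3g: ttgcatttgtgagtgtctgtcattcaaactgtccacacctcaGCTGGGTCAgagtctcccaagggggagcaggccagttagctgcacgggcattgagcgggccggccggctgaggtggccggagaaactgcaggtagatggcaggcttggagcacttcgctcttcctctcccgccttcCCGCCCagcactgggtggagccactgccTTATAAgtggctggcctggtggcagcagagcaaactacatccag
Sema6b: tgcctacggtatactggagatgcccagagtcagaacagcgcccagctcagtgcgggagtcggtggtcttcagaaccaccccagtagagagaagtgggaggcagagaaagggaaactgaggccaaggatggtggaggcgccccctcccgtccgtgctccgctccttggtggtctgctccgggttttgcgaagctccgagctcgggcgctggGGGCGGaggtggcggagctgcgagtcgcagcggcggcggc
Plxnb2: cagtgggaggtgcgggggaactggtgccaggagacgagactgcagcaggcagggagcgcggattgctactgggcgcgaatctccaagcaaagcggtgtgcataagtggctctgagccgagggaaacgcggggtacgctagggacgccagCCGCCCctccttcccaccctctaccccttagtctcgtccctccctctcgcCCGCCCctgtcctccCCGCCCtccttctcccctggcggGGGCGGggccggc
Nrp2: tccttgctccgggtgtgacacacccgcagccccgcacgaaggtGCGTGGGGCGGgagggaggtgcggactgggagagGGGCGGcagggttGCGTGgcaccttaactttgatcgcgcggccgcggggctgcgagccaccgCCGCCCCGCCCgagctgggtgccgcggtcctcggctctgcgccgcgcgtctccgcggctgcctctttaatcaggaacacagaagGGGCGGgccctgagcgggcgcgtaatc

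Sema3a fell in baicalin, and its window (GRCm38.p6, chr5:13396534-13396783, plus strand) held none of the 5 motifs, had 40.8% GC and held 2 CpG dinucleotides. This RefSeq start lies 271370 bases inside the GENCODE gene, whose first annotated exon is further upstream, so it may not be the start used in these cells. The GC content of the other windows was 60.4% for Sema3g (chr14:31217623-31217872, plus strand), 66.0% for Sema6b (chr17:56140344-56140593, minus strand), 69.2% for Plxnb2 (chr15:89180789-89181038, minus strand) and 72.4% for Nrp2 (chr1:62703067-62703316, plus strand). The median over all 32851 RefSeq windows of that length was 52.4%. The SP1 letters were present in the Sema3g, Sema6b, Plxnb2 and Nrp2 windows and in 32.7% of all windows. The AHR core was present only in the Nrp2 window among these 5, and in 28.2% of all windows. The Sema3g window alone among the 5 held the antioxidant response element letters, found in 10.2% of all windows, and the TATA letters, found in 22.8%. No window of the 5 held the AP-1 letters, which 6.75% of all windows hold. A match is a run of letters and not a shown binding site. RefSeq windows existed for 26 of the 34 members, and Plxna1 is not among them.

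Of the 34 members, 24 passed the filter on low counts and were tested, 8 had between 2 and 35 reads in all, and 2 had none. In baicalin 11 of the tested members were higher and 6 lower, and 7 were not called, at an adjusted p under 0.05 in edgeR's quasi-likelihood test across all 13728 tested genes. The called share of 70.8% stands beside 67.7% of all tested genes, and is therefore near the background. By direction, 33.6% of all tested genes were called higher and 34.1% lower. A change of at least 2-fold was called for 4 members, of which 3 were higher (background 5.24%) and 1 lower (background 9.71%). The median log2 fold change of the 24 members was 0.21, beside 0.00 for all tested genes. Groups did not overlap for 16 members, where the background is 70.2%. Scaling by library size alone moved the median of all tested genes to -0.13 and gave 9 higher and 6 lower members. After removal of trends on exon length and GC content the split was 13 higher and 4 lower. All tested genes then had a median of 0.09, with 5466 called higher and 3581 lower of 13728.

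**Figure D1:**
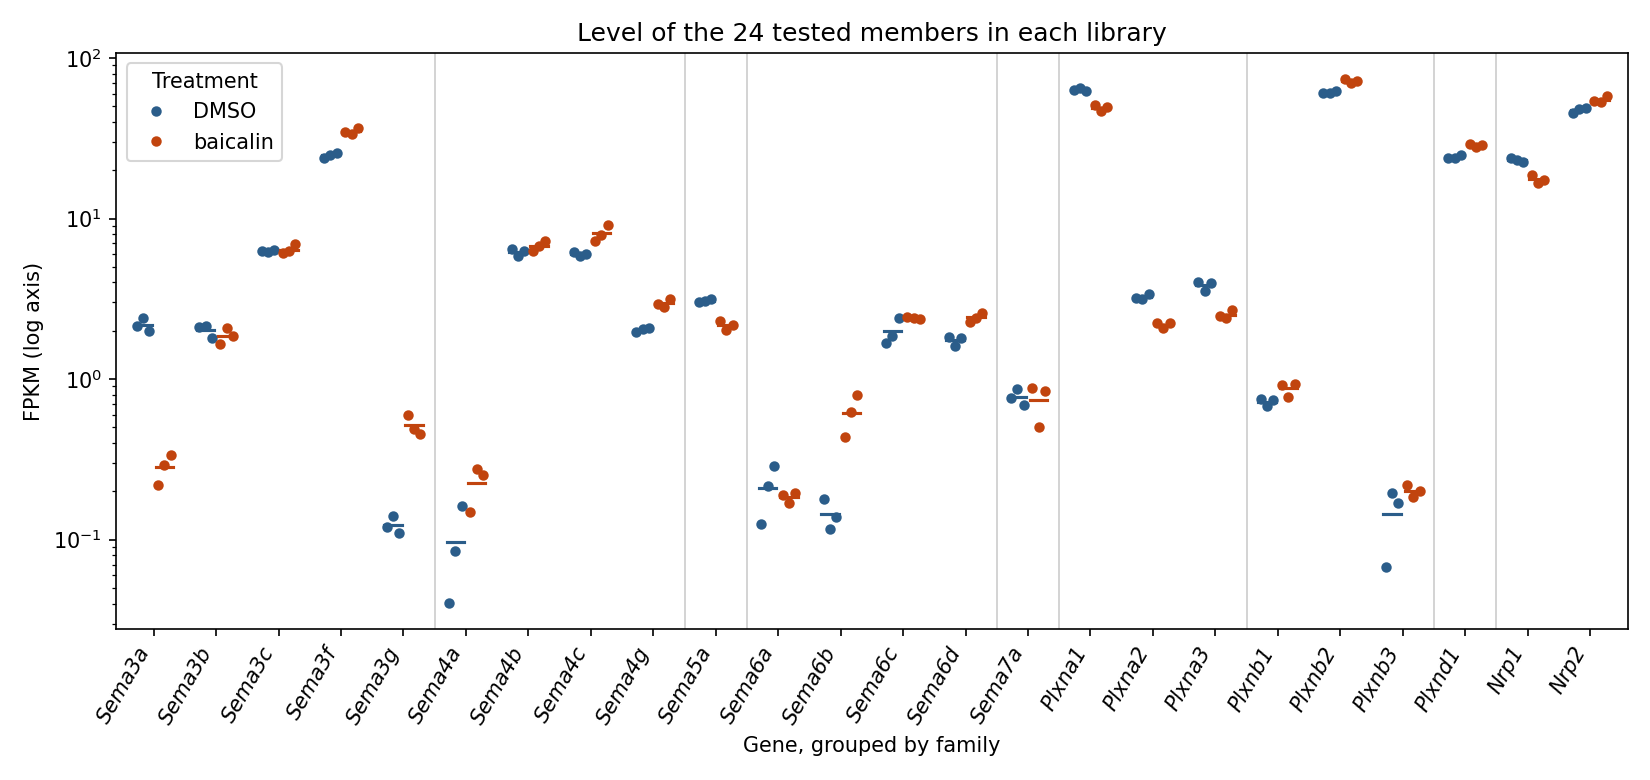
FPKM (a level per length, log axis) of the 24 tested members in each library, grouped by family, with a point for each library and a short line at the mean of the 3 libraries of a group. Plxna1, Plxnb2 and Nrp2 stood highest, and the blue DMSO and orange baicalin points of Sema3a were the furthest apart.

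Semaphorins of class 3, the secreted ligands, moved in both directions. Among 5 tested, Sema3f and Sema3g rose, Sema3a fell, and Sema3b and Sema3c did not pass the test. The called share was 60%, beside 67.7% of all tested genes, of which 33.6% were higher and 34.1% lower. Sema3a (ENSMUSG00000028883, GRCm38 chromosome 5, 13125414 to 13602565, plus strand), the founding repellent of axon growth cones and a ligand of Nrp1, was at 29.2, 33.0 and 27.4 CPM under DMSO and 2.95, 4.01 and 4.60 CPM under baicalin. Every baicalin library was far below every DMSO library. The change was a 7.71-fold fall (log2 change -2.95 ± 0.12 SE, adjusted p = 7.36e-27), from 29.9 ± 2.86 to 3.85 ± 0.84 CPM (SD, n = 3 each). Once the length and GC trends were taken out it was -2.26.

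Sema3f (ENSMUSG00000034684, chromosome 9, 107681500 to 107710475, minus strand), a ligand that prefers Nrp2, was at 122, 129 and 132 CPM under DMSO and 174, 173 and 187 CPM under baicalin. Its groups did not overlap, and it rose, with means of 128 ± 4.86 and 178 ± 7.52 CPM (SD, n = 3 each; log2 change 0.48 ± 0.04 SE, adjusted p = 2.55e-14). Sema3g (ENSMUSG00000021904, chromosome 14, 31217860 to 31230352, plus strand), known from blood vessels and also a user of neuropilins, had 10, 11 and 9 reads in DMSO against 44, 39 and 35 in baicalin. The level was low in every library, and the rise was 4.10-fold (log2 change 2.04 ± 0.34 SE, adjusted p = 5.54e-07).

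Sema3c, a ligand of Plxnd1 in the developing heart and vessels, was at 44.3, 43.7 and 45.4 CPM under DMSO and 42.4, 44.1 and 48.4 CPM under baicalin (log2 change 0.02 ± 0.06 SE, adjusted p = 0.831), with overlapping groups. Its transcript is poor in GC (42.7%), and with the length and GC trends taken out it was called higher at 0.38. Sema3b, a close relative of Sema3f, was at 9.97, 10.1 and 8.55 CPM under DMSO and 7.70, 9.77 and 8.68 CPM under baicalin, with overlap and no call (log2 change -0.13 ± 0.13 SE, adjusted p = 0.37). Sema3d had 1 read in a DMSO library and 1 in a baicalin library, and Sema3e had 3 reads, all in baicalin replicate 2. A library showing no read may still hide an expected count of up to 3 (95% confidence), a limit that covers counting error only. Sema3d and Sema3e thus had a trace of reads in the libraries named, too few to test.

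Of the 13 membrane-bound semaphorins in classes 4 to 7, 10 were tested, with 6 higher and 1 lower. The called share of 70.0% is near the 67.7% of all tested genes, of which 33.6% were higher and 34.1% lower. In class 4, whose members bind B plexins among others, 3 of 4 tested genes were higher. Sema4c, a Plxnb2 ligand, was at 28.1, 26.8 and 27.3 CPM under DMSO and 32.4, 35.9 and 41.3 CPM under baicalin. The groups did not overlap, and baicalin libraries were spread more widely than DMSO libraries (log2 change 0.42 ± 0.08 SE, adjusted p = 3.93e-06). Exons of Sema4c overlap the opposite-strand gene D430040D24Rik over 334 bp, and that gene had 252 reads beside 3370 for Sema4c. Sema4g, also described as a Plxnb2 ligand, was at 9.43, 9.95 and 10.1 CPM under DMSO against 13.96, 13.6 and 15.0 CPM under baicalin, and rose (log2 change 0.53 ± 0.11 SE, adjusted p = 2.76e-05).

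Sema4a, known from immune cells and the retina, had 4, 8 and 16 reads under DMSO and 13, 26 and 23 in baicalin. Its groups overlapped, and it was called higher (log2 change 1.21 ± 0.41 SE, adjusted p = 0.00919). That call was lost without DMSO replicate 1 (log2 fold change 0.84, adjusted p = 0.0988), with DESeq2 (adjusted p = 0.073) and on log2(FPKM + 1) without a filter (0.16, adjusted p = 0.183). Without DMSO replicate 3 the value was 1.83. Sema4b was at 35.9, 32.7 and 35.1 CPM under DMSO and 34.8, 37.7 and 40.2 CPM under baicalin, and missed the threshold (log2 change 0.12 ± 0.07 SE, adjusted p = 0.113), although it was called without baicalin replicate 1 (0.19, adjusted p = 0.0187). Sema4d, the classical Plxnb1 ligand, had 13 reads under DMSO and 8 in baicalin, and Sema4f 2 and 1.

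Sema5a, a class 5 semaphorin whose extracellular part carries thrombospondin repeats, was at 56.2, 57.3 and 58.2 CPM under DMSO and 41.8, 37.3 and 39.9 CPM under baicalin. All baicalin libraries were lower (log2 change -0.53 ± 0.06 SE, adjusted p = 2.31e-11). After the length and GC trends were taken out the value was 0.05 and no longer called (adjusted p = 0.433), and its exons, at 18686 bp, are the longest of the tested members. Sema5b, the other member of the class, had 9 reads under DMSO and 3 in baicalin.

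Class 6 semaphorins bind A plexins. Of the 4 tested, 3 were higher, a called share of 75% beside 67.7% of all tested genes, of which 33.6% were higher. Sema6b (ENSMUSG00000001227, chromosome 17, 56123085 to 56140343, minus strand), a ligand of Plxna4 and Plxna2 in neurons, had 13, 8 and 10 reads under DMSO and 28, 43 and 53 in baicalin. No baicalin library was as low as any DMSO library, and the rise was 4.17-fold at a low level (log2 change 2.06 ± 0.34 SE, adjusted p = 6.04e-07). Sema6d, which binds Plxna1 in the heart and in bone, was at 19.2, 16.8 and 19.0 CPM under DMSO against 23.5, 25.0 and 26.9 CPM under baicalin (log2 change 0.46 ± 0.08 SE, adjusted p = 4.86e-06). Removal of the length and GC trends moved it to 0.74.

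Sema6c was at 9.86, 10.98 and 14.1 CPM under DMSO and 14.1, 14.1 and 13.7 CPM under baicalin. The highest DMSO library reached the baicalin level, and the call was close to the threshold (log2 change 0.26 ± 0.11 SE, adjusted p = 0.037). It was lost without DMSO replicate 1 (0.16, adjusted p = 0.259), without DMSO replicate 2 (0.23, adjusted p = 0.121), with DESeq2 (adjusted p = 0.126), with library size alone (0.13, adjusted p = 0.302) and in the 3 fits on FPKM. Sema6a, with 1.08, 1.89 and 2.52 CPM under DMSO and 1.62, 1.47 and 1.69 CPM under baicalin, was not called (adjusted p = 0.568). Sema7a, the lipid-anchored member that binds Plxnc1 and integrins, was at 2.49, 2.86 and 2.25 CPM under DMSO and 2.83, 1.64 and 2.74 CPM under baicalin, with no call (log2 change -0.08 ± 0.24 SE, adjusted p = 0.787).

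**Figure D2:**
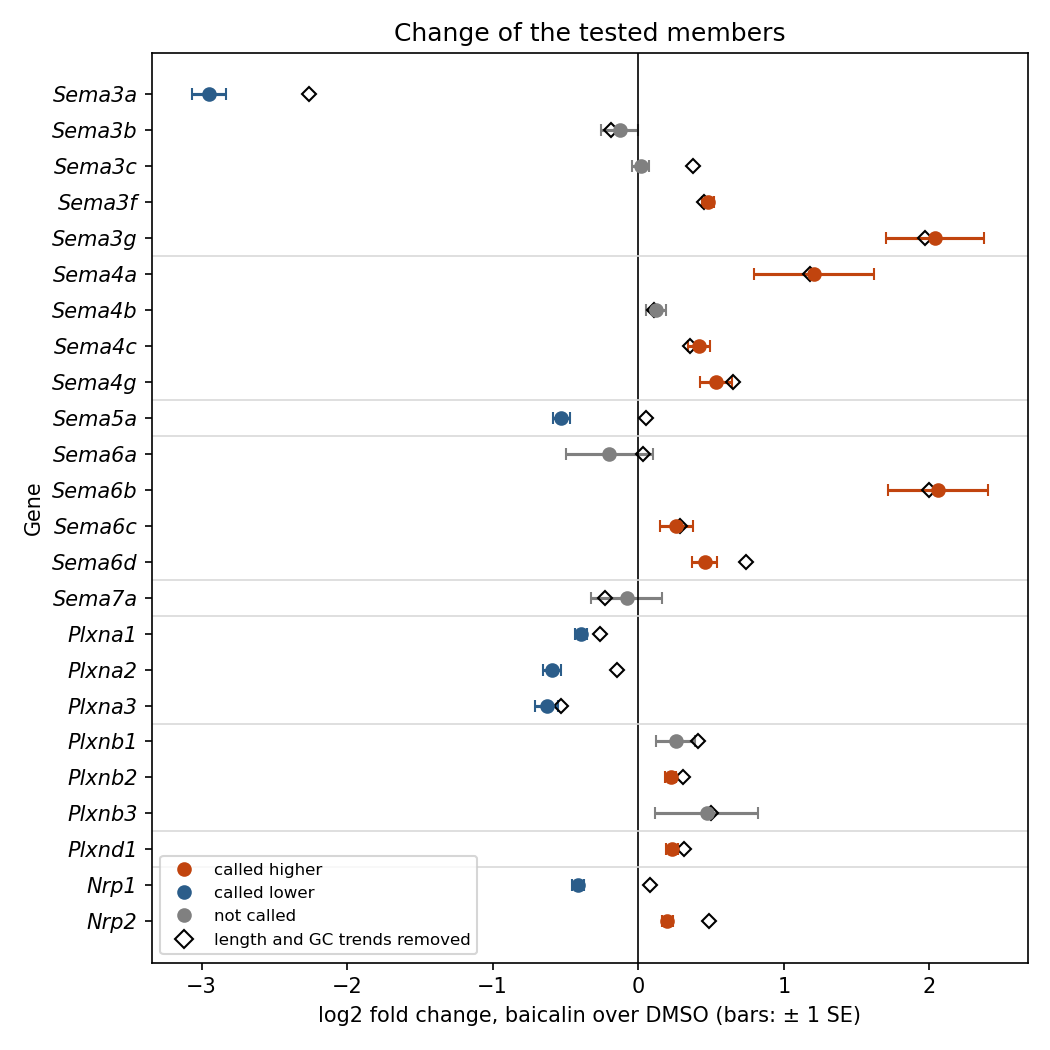
Log2 fold change of baicalin over DMSO for the 24 tested members by family, with bars of 1 SE. Filled circles are the main values and open diamonds the values after length and GC trends were removed. Sema3a lies at -2.95 and Sema3g and Sema6b near 2, and the diamonds of Nrp1 and Sema5a lie to the right of 0. With these trends removed the median of all tested genes was 0.09.

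Plexins, the signalling receptors, moved in both directions. Of 7 tested, 5 were called, a share of 71.4% that is near the 67.7% of all tested genes. Of all tested genes 33.6% were higher and 34.1% lower. All 3 tested A plexins were lower, while the D plexin and 1 of 3 B plexins, the most abundant, were higher. Plxna1 (ENSMUSG00000030084, chromosome 6, 89316314 to 89362620, minus strand), which pairs with neuropilins and also binds class 6 ligands, was at 565, 587 and 561 CPM under DMSO and 450.2, 415 and 439 CPM under baicalin. The groups were well apart (log2 change -0.39 ± 0.04 SE, adjusted p = 3.54e-13), and the value was -0.26 with the length and GC trends taken out. A stretch of 970 bp of its exons is shared with the gene Gm26811 on the other strand, which had 254 reads beside 53296 for Plxna1.

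Plxna2, a receptor of Sema6a and Sema6b as well as a neuropilin partner, was at 54.3, 54.0 and 58.0 CPM under DMSO and 37.4, 35.1 and 37.9 CPM under baicalin (log2 change -0.59 ± 0.06 SE, adjusted p = 1.38e-12). With the trends taken out the fall shrank to -0.15 and remained called (adjusted p = 0.0236). Plxna3, which serves Sema3f in neurons, was at 31.5, 27.7 and 31.2 CPM under DMSO against 19.0, 18.6 and 20.9 CPM under baicalin (log2 change -0.63 ± 0.08 SE, adjusted p = 1.13e-09), and at -0.53 with the trends taken out. Plxna4 had 21 reads under DMSO and 14 in baicalin. Of its antisense transcripts only Plxna4os2 had reads, 1 in each of 2 DMSO libraries. The sources used here do not state whether counting used the strand, so reads where Plxna4 and Plxna4os3 overlap, over 110 bp, could not be assigned to a strand.

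Plxnb2 (ENSMUSG00000036606, chromosome 15, 89155549 to 89180788, minus strand), the broadly expressed receptor of class 4 ligands, was at 465, 461 and 478 CPM under DMSO and 556, 533 and 548 CPM under baicalin. Every baicalin library was higher (log2 change 0.22 ± 0.04 SE, adjusted p = 7.15e-07). Plxnd1, the receptor of Sema3e and, with neuropilins, of Sema3c, was at 172, 173 and 179.7 CPM under DMSO against 209, 202 and 205 CPM under baicalin (log2 change 0.23 ± 0.04 SE, adjusted p = 1.42e-06). Scaling by library size alone left both called higher, at 0.09 and 0.10. Removal of the trends gave 0.31 for each.

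Plxnb1, the receptor of Sema4d, was at 7.15, 6.46 and 7.07 CPM under DMSO and 8.55, 7.34 and 8.85 CPM under baicalin, and missed the threshold (log2 change 0.26 ± 0.13 SE, adjusted p = 0.0864), though its groups did not overlap. It was called higher without baicalin replicate 2 (0.35, adjusted p = 0.0339) and with the trends taken out (0.41, adjusted p = 0.00557). Plxnb3 had 8, 22 and 20 reads under DMSO and 23, 21 and 22 in baicalin, with no call (adjusted p = 0.242). Plxnc1, the receptor of Sema7a, had 2, 1 and 7 reads under DMSO and none in baicalin, too few to test.

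Neuropilins, the binding subunits for class 3 semaphorins and for VEGF, moved apart. Nrp1 (ENSMUSG00000025810, chromosome 8, 128358604 to 128503363, plus strand), which prefers Sema3a, was at 231, 226 and 219 CPM under DMSO and 179, 161 and 168 CPM under baicalin. The groups did not overlap (log2 change -0.41 ± 0.04 SE, adjusted p = 1e-12). Its transcript is poor in GC (41.9%), and with the length and GC trends taken out Nrp1 stood at 0.08 and was no longer called (adjusted p = 0.0848). The median of all tested genes was then 0.09. Nrp2 (ENSMUSG00000025969, chromosome 1, 62703285 to 62818695, plus strand), which prefers Sema3f, was at 531, 562 and 576 CPM under DMSO and 626, 619 and 671 CPM under baicalin. It rose (log2 change 0.20 ± 0.04 SE, adjusted p = 1.24e-05), more so with the trends taken out (0.48), while with library size alone the call was lost (0.07, adjusted p = 0.0787).

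**Figure D3:**
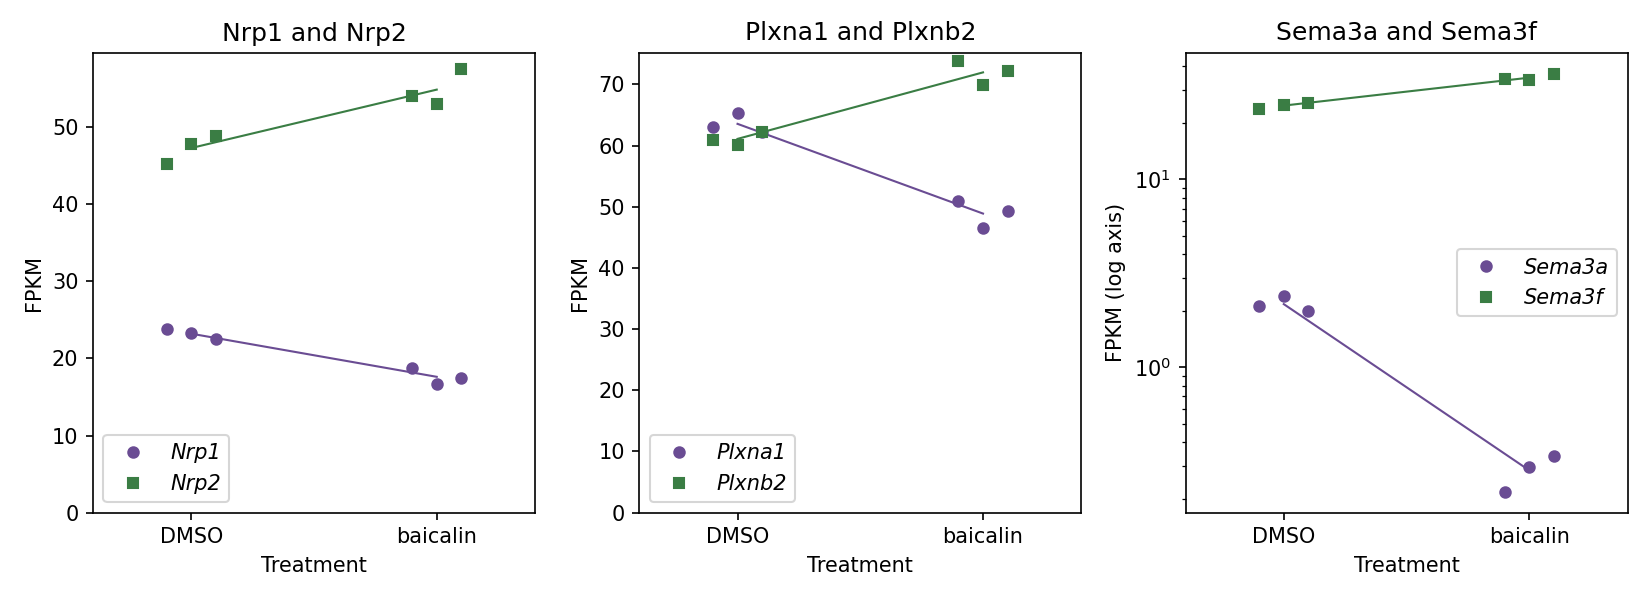
FPKM of Nrp1 and Nrp2, of Plxna1 and Plxnb2, and of Sema3a and Sema3f in the 3 DMSO and 3 baicalin libraries (log axis for the last pair), with a point for each library and a line joining the group means. Plxna1 and Plxnb2 lay close together in DMSO and apart in baicalin.

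Levels of different genes can be set side by side per length, in FPKM. The order in DMSO was led by Plxna1 at 63.5 ± 1.58 and Plxnb2 at 61.1 ± 1.09 FPKM (SD, n = 3 each), whose ranges met at 62.26 FPKM, both in DMSO replicate 3. Nrp2 followed at 47.3 ± 1.85 FPKM, and then Sema3f at 24.7 ± 0.89, Plxnd1 at 24.1 ± 0.54 and Nrp1 at 23.2 ± 0.65 FPKM. The libraries of Sema3f and Plxnd1 overlapped widely, while only DMSO replicate 1 of Nrp1, at 23.8 FPKM, reached the range of Plxnd1. Sema3c, Sema4b and Sema4c lay close together at 6.28 ± 0.12, 6.17 ± 0.31 and 6.01 ± 0.15 FPKM.

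In baicalin Plxnb2 led with 71.96 ± 1.94 FPKM, and Nrp2 at 54.9 ± 2.41 FPKM stood above Plxna1 at 48.9 ± 2.26 FPKM. The FPKM of Plxnb2 over that of Plxna1 was 0.966 and 0.920 in DMSO replicates 1 and 2, with level values in replicate 3, and was 1.45, 1.51 and 1.47 in baicalin. For Nrp2 over Nrp1 the quotients were 1.90, 2.05 and 2.17 in DMSO against 2.89, 3.17 and 3.30 in baicalin. Both quotients were higher in every baicalin library than in any DMSO library, and these pairs were set side by side after their values were seen, so no test is given. Removing the length and GC trends left a log2 difference between the changes of the 2 genes of 0.57 for the plexin pair (0.61 before) and of 0.40 for the neuropilin pair (0.61 before).

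Sums compared between groups depend on how the deposited FPKM were scaled between libraries. On that scale the 9 plexins summed to similar levels, at 157 ± 0.92 FPKM in DMSO and 155 ± 5.06 FPKM in baicalin (SD, n = 3 each). The A plexins were at 70.7 ± 1.22 and 53.6 ± 2.42 FPKM and the B plexins at 62.0 ± 1.11 and 73.0 ± 2.03 FPKM. Plxna1 made up 40.5% ± 1.06 of the plexin sum in DMSO and 31.5% ± 0.43 in baicalin, and Plxnb2 39.0% ± 0.60 and 46.4% ± 0.28. The 2 neuropilins together were at 70.5 ± 1.26 and 72.5 ± 2.71 FPKM. The 7 class 3 ligands summed to 35.3 ± 0.80 FPKM in DMSO and 43.9 ± 1.83 FPKM in baicalin. Within that sum Sema3f held 70.0% ± 1.12 in DMSO and 79.3% ± 0.72 in baicalin, and Sema3a 6.14% ± 0.58 and 0.641% ± 0.119.

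Other genes of the pathway were taken from a list of 91, of which 74 were tested. In baicalin 30 were higher and 29 lower, so that 79.7% were called beside 67.7% of all tested genes, with a median log2 fold change of -0.06. With the length and GC trends taken out, 38 were higher and 17 lower, beside 5466 higher and 3581 lower of all 13728 tested genes. Among the other ligands of neuropilins 3 were higher and 3 lower of 7. Vegfa, the main growth factor of blood vessels and a ligand of Nrp1, was at 92.6, 89.1 and 94.3 CPM under DMSO and 149, 183 and 179 CPM under baicalin (log2 change 0.89 ± 0.06 SE, adjusted p = 2.52e-09). Vegfd, a lymphatic growth factor, was at 199, 187 and 199 CPM under DMSO and 80.3, 69.8 and 67.9 CPM under baicalin (log2 change -1.43 ± 0.05 SE, adjusted p = 1.14e-25). Vegfc, its relative and a ligand of Nrp2, fell by 0.81 on the log2 scale. No library of either group overlapped the other for these 3 genes.

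Of co-receptors and other receptors 4 were higher and 2 lower of 9 tested, a called share of 66.7% that is near the 67.7% of all tested genes. Met, a receptor kinase that couples to B plexins, did not pass the test (88.6 ± 1.57 and 88.9 ± 2.04 CPM, SD, n = 3 each, log2 fold change 0.00, adjusted p = 0.946). It was called lower with library size alone (-0.12) and higher with the length and GC trends taken out (0.29). The medians of all tested genes in these 2 settings were -0.13 and 0.09. Kdr, the VEGF receptor of endothelial cells, had 1 read in DMSO and 3 in baicalin, whereas Flt1, another VEGF receptor, rose by 0.50 and the pseudokinase receptor Ptk7 by 0.43 (log2 fold changes). The integrin subunit Itgb1, which Sema7a binds and plexins restrain, was lower (-0.29). Of the proteases, Furin, which cleaves class 3 semaphorins, was not called (184 ± 7.59 and 180.0 ± 5.93 CPM, log2 fold change -0.03, adjusted p = 0.557). It was called lower with library size alone (-0.16) and higher with the trends taken out (0.11), beside the same medians of -0.13 and 0.09. Adam17, a sheddase, was higher (0.36), its exons overlapping those of Iah1 on the opposite strand, and the membrane protease Mmp14 was lower (-0.88).

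Of 12 GTPases of plexin signalling 7 were higher and 2 lower. Of 12 tested GTPase regulators 3 were higher and 9 lower. Over all tested genes 33.6% were called higher and 34.1% lower, and the difference between these roles was not tested. Rnd1, which binds the inner part of plexins, was at 2.82, 3.66 and 3.51 CPM under DMSO and 17.5, 22.1 and 21.3 CPM under baicalin. That is a 6.10-fold rise (log2 change 2.61 ± 0.13 SE, adjusted p = 4.29e-24), with groups far apart. Its relative Rnd3 rose by 0.43 and Rras, the R-Ras substrate of plexins, by 0.52, while Mras, a relative of Rras, was lower (-0.55). The exchange factor Kalrn was lower (-1.47), and Tiam1, an activator of Rac, and Arhgap44, a GTPase-activating protein, were higher (1.12 and 1.38). Farp2, an exchange factor bound to Plxna1, stood at -0.51, but its exons share 1013 bp with the opposite-strand gene Stk25, which had more reads (8124 against 1386), so the value is uncertain.

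Downstream of the receptors, 5 of 13 tested kinases were lower and 4 higher. That called share of 69.2% is near the 67.7% of all tested genes. Limk1, which phosphorylates cofilin, was at 39.7, 34.5 and 37.3 CPM under DMSO and 90.03, 94.97 and 91.04 CPM under baicalin (log2 change 1.31 ± 0.05 SE, adjusted p = 6.95e-28), with no overlap. Cofilin itself, Cfl1, rose by 0.52 and Plk2, a polo-like kinase, by 1.11. Rock1, a kinase that acts for RhoA, was lower (-0.68). With the length and GC trends taken out it was called higher (0.12), close to the median of 0.09 for all tested genes. The collapsin response mediators, cytoplasmic proteins on which Sema3a signalling converges in neurons, split into a rise of Crmp1 (0.52) and falls of Dpysl2 (-0.39) and Dpysl3 (-0.86). Of the MICAL enzymes, which bind plexins and oxidise actin, Mical2 was higher (0.50), Mical3 lower (-0.67), and Mical1 not called (-0.09, adjusted p = 0.275). Exons of Mical1 share 905 bp with the opposite-strand gene Smpd2, which had 2387 reads beside 3545, so its value is uncertain. Among the adaptors Nck1 and Nck2 were lower (-0.47 and -0.46), the first no longer called with the trends taken out (-0.05). Trem2, a macrophage receptor that associates with Plxna1, was higher (2.01), from 2.59 ± 0.39 to 10.4 ± 1.80 CPM (SD, n = 3 each). Of 5 markers of macrophages or other blood cells, Ptprc, Adgre1 and Itgam were at or near 0, and the sum of the list was 1.79 to 2.36 CPM under DMSO and 2.99 to 4.89 CPM under baicalin, with Cd68 higher.

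**Figure D4:**
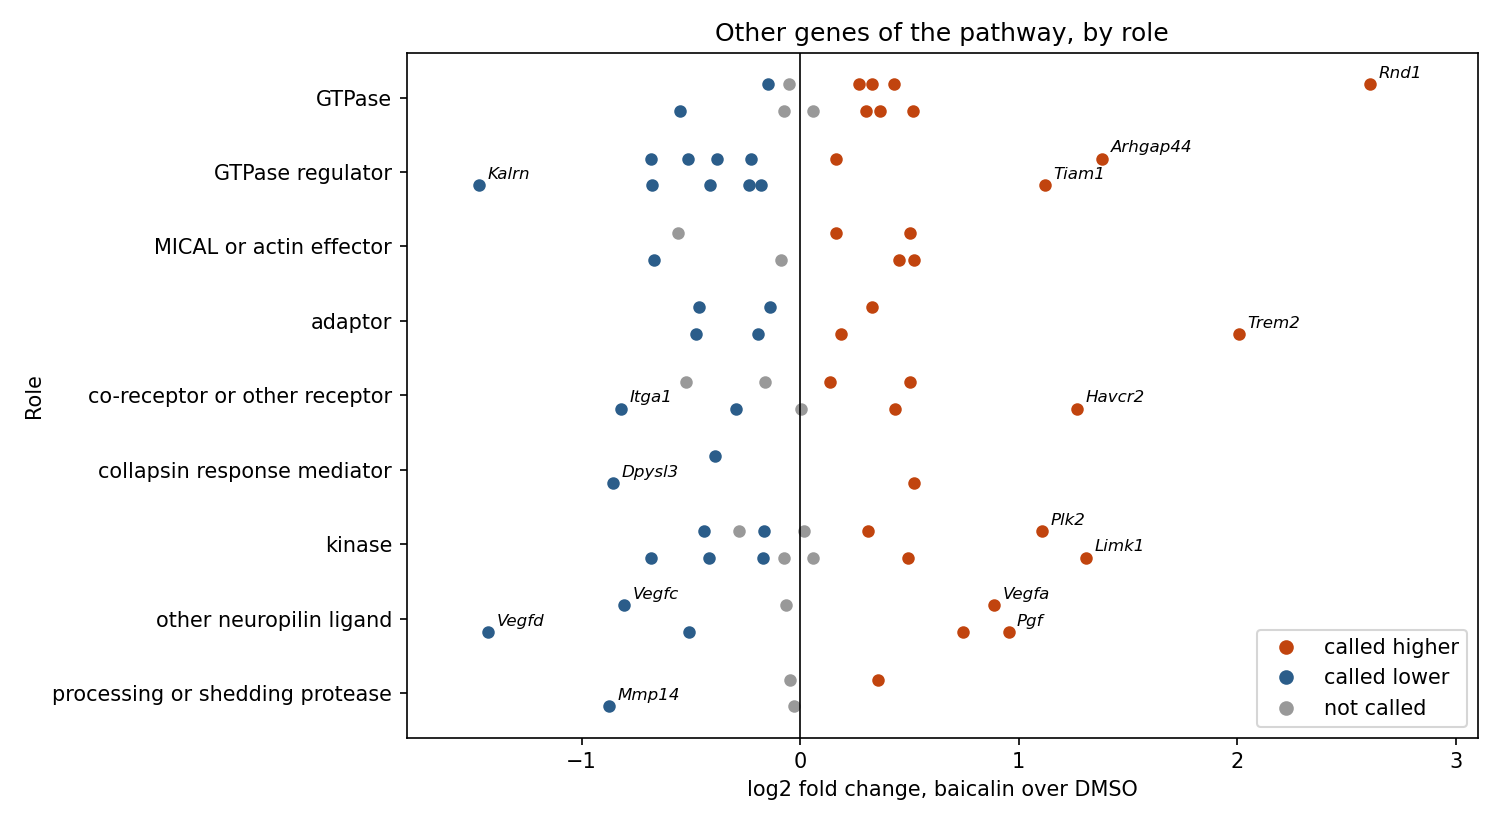
Log2 fold change of baicalin over DMSO for the 74 tested genes of the pathway list, a point for each gene, by role. Names are given where the change is large. Rnd1 lies furthest right at 2.61 and Kalrn furthest left at -1.47.

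The changes of the members ran with the base composition and length of their transcripts. The 6 members called lower had a median GC content of 47.8% and a median exon length of 11827 bp, whereas the 11 called higher had 57.3% and 5935 bp. Across the 24 tested members Spearman's rho between log2 fold change and GC content was 0.55, and across 13714 tested genes with both values it was 0.31. With exon length rho was -0.57 for the members and -0.19 for the tested genes. These are descriptions across genes of the same 6 libraries. After the trends were taken out, the rho with GC content was 0.26 for the members and 0.03 for the tested genes, and that with exon length was -0.30 and 0.08. Among the 6 members called lower, Plxna1 (57.3% GC), Plxna3 (55.05% GC) and Plxna2 (49.7% GC) are above the median of 49.4% for the tested genes. With the trends taken out their values were -0.26, -0.53 and -0.15. Sema3a (40.8% GC), Nrp1 (41.9% GC) and Sema5a (45.9% GC) are below that median, and their values were then -2.26, 0.08 and 0.05. The median log2 fold change of all tested genes was then 0.09. The falls of Plxna1, Plxna2 and Plxna3 stayed called, and below the median only that of Sema3a did. Plxna2 lies close to the GC median, and most of its fall went with the trends (-0.59 before). Nrp1 and Sema5a had stood at -0.41 and -0.53. Length and GC trends were removed together, and the part of base composition in the falls was not tested.

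**Figure D5:**
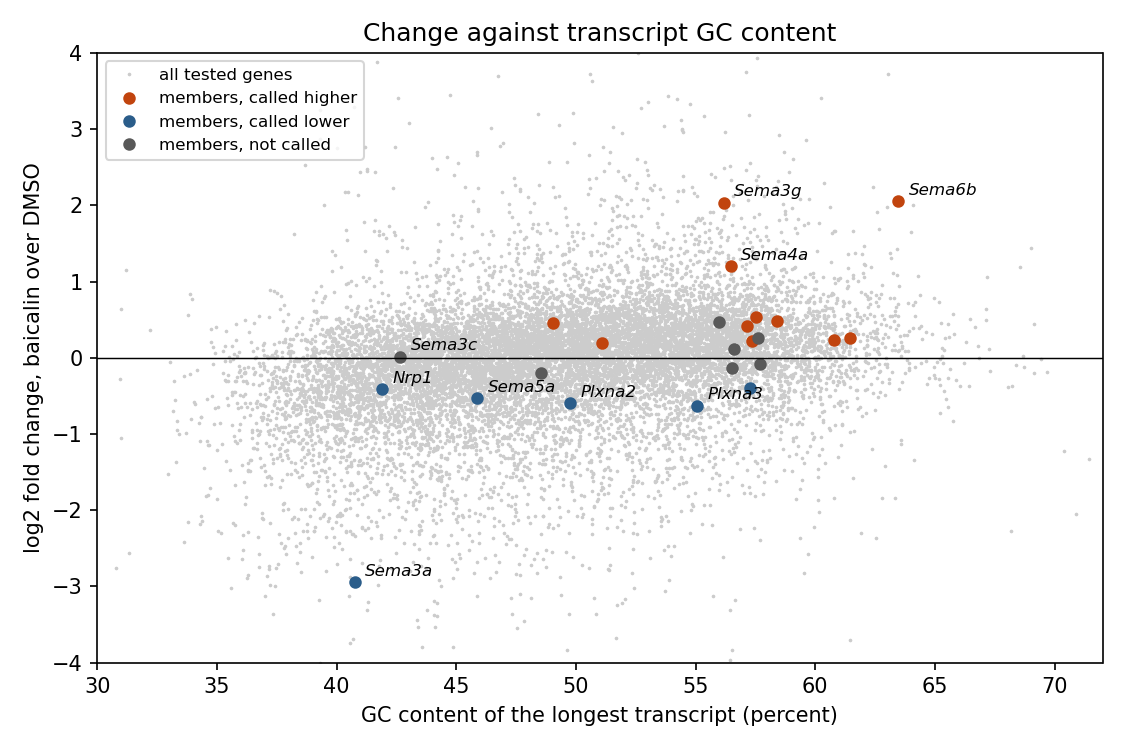
Log2 fold change of baicalin over DMSO against the GC content of the longest transcript (percent), with a grey dot for each tested gene within the plotted range and larger points for the 24 members, coloured by call. Sema3a, at 40.8% GC, lies far below the other members, and Sema6b, at 63.5% GC, is at the right.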

How the data were processed

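Per the labels' protocols, libraries came from polyadenylated RNA and a NEBNext Ultra kit. The authors deposited counts per gene, which the series design text says featureCounts 1.5.0-p3 produced, and FPKM values computed from those counts and gene lengths. These FPKM imply library sizes above the count totals for the DMSO samples and below them for the baicalin samples. They therefore also carry a scaling between libraries. Reads were placed on mm10, per the submitters' processing notes. Aligner, annotation and strandedness were not given in the sources used here. Coordinates, exon lengths and transcript GC come from GENCODE M21 (GRCm38, the assembly of mm10), which holds 54495 of the 54532 gene identifiers. The deposited FPKM of Rock1 and Sema4g imply shorter genes than the 18094 and 8661 bp of exons used here to remove length trends.

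Counts of the 3 DMSO and 3 baicalin samples went through edgeR 4.0.16 under R 4.3.3, using filterByExpr, TMM factors, robust quasi-likelihood fits and Benjamini-Hochberg adjustment over 13728 genes. Adjusted p-values are edgeR's where no other tool is given. An SE is the absolute log2 fold change divided by the square root of F. The fits were tested on simulated data. The members and lists were chosen with earlier results of these data known. Named are all members and, from the pathway list, 11 fixed genes and up to 3 called genes of at least 5 CPM in each role with the largest changes. Genes outside this rule are named after their values were seen.

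Alternatives were RLE factors, library size alone, DESeq2 1.42.0, limma-voom (limma 3.58.1), no low-count filter, a stricter filter (1 CPM throughout a group), a block for the replicate number, limma-trend at pseudocounts of 1 and 0.1 added to FPKM before log2 (genes reaching 1 FPKM in 3 libraries, for the former also every gene), lowess trends (span 0.3) on exon length and GC removed per library (with and without the block), and leaving out each library.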

Additional observations from a re-analysis of the deposited data

How the results depend on the processing

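Of the 24 tested members 16 kept their direction where called and their side of the threshold under every alternative that gave a value, among them Sema3a, Sema3f, Sema3g, Sema6b, Plxna1, Plxna2, Plxna3, Plxnb2 and Plxnd1. The range for Sema3a was -3.08 to -1.30, the latter on the log2(FPKM + 1) scale, which understates low genes. Removal of the length and GC trends turned Nrp1 to 0.084, Sema5a to 0.053, Rock1 to 0.12 and Furin to 0.11, and together with the replicate block gave Nrp1 0.083 (adjusted p = 0.0446), Sema5a 0.053, Rock1 0.12 and Furin 0.11. The median of all tested genes with the trends removed was 0.086, with or without the block. Library size alone turned Met to -0.12, where the median of all tested genes was -0.13. The cause of these turns was not tested.

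On the FPKM scales, where 17 members passed the filter, 7 members were called higher, both at a pseudocount of 1 and of 0.1, against 11. With the trends removed 17 partner genes were called lower against 29, with or without the block. Over all tested genes 3581 were called lower with the trends removed, without the block, against 4676. Leaving out each library in turn gave 9 to 12 members higher and 6 lower, 28 to 30 partner genes higher and 25 to 28 lower, and 4424 to 4583 genes higher and 4397 to 4563 lower among all tested. Of the called genes 49.7% were higher, against 37.4% with library size alone and 60.4% with the trends removed.

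The replicate numbers pair nothing that the labels name. Deviations of same-numbered libraries correlated at 0.035, 0.037 and -0.0024, and those of different-numbered libraries at -0.058 to 0.026. These values cannot exclude a pairing, and as the labels name none, the replicate numbers are read as numbers only. The replicate block gave 11 members higher and 6 lower, as without it, and 4660 and 4731 of all tested genes. At this depth members under about 3 reads in a library could not be followed.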
